A study of Mus musculus with 70 samples.

Results

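Natural killer (NK) and cytotoxic effector genes were followed through sorted blood leukocytes of stressed and unstressed mice. The set held 10 of the 52636 genes in the count table, chosen by name: Ncr1, Klrb1c, Klrk1, Klre1, Gzma, Gzmb, Prf1, Nkg7, Eomes and Ccl5. All 10 passed the filter on low counts in each of the 4 cell types, with CON, SUS and RES filtered together. With only the 2 groups of a contrast, fewer passed in some contrasts of Ly6C-high monocytes and B cells. Their counts were read in 68 of the 70 libraries. The animals were wild-type C57BL/6J mice, 7 to 8 weeks old when the stress began, and no group carried a transgene or received a drug. Control mice (CON) were not defeated and lived in pairs across a divider. The other mice met an aggressive CD-1 mouse daily for 10 days (chronic social defeat stress, CSDS), and a social interaction test then split them into susceptible (SUS) and resilient (RES) animals. SUS and RES therefore differ by measured behaviour and not by an assigned treatment. Trunk blood was sorted into B cells (B220+ CD90.2-), T cells (CD90.2+ B220-) and Ly6C-high and Ly6C-low monocytes, the last pair taken as CD11b+ Ly6G- cells without B220 or CD90.2. The antibody panel held no marker of NK cells. Ly6C-high monocytes gave 6 CON, 6 SUS and 6 RES libraries, Ly6C-low monocytes 4, 6 and 6, B cells 6, 6 and 5, and T cells 6, 6 and 5. GEO's labels name the source as brain, whereas the study's methods describe blood. They tie no library to a mouse, so the p-values measure the spread between libraries.

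Total counts ran from 19769835 to 67038231 per library. Each sorted cell type had the highest summed level of its own defining markers, though monocyte markers were also read in other cells. B cell markers summed to 4251 to 5522 CPM (a gene's counts as parts of a library's total, with the total set to the same size in all) in B cell libraries and to at most 45.4 CPM elsewhere. T cell markers summed to 2712 to 3972 CPM in T cells, Ly6C-high monocyte markers to 6151 to 12034 CPM in Ly6C-high monocytes, and Ly6C-low monocyte markers to 6335 to 9384 CPM in Ly6C-low monocytes. Ly6C-high monocyte markers also summed to 598 to 916 CPM in B cells and 777 to 1051 CPM in T cells, and Ly6C-low monocyte markers to 715 to 1055 CPM in T cells and 488 to 1289 CPM in Ly6C-high monocytes. The libraries numbered 52 and 70 went against their labels and were left out. In the library numbered 52, labelled RES B cells, the 10 genes summed to 753 CPM, against 14.9 to 39.6 CPM in the other RES B cell libraries. In the library numbered 70, labelled RES T cells, they summed to 16.4 CPM, against 208 to 580 CPM in the other RES T cell libraries. These sums are levels of the set under study, and the lineage markers of both libraries are not given here. CPM values are scaled by the trimmed mean of M values (TMM) within a cell type.

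NK cells kill infected or transformed cells without prior priming, and CD8 T cells kill after antigen recognition with much of the same machinery. Activating receptors on the surface trigger the release of granules whose perforin opens a path for granzymes, proteases that start death of the target cell. The same cells secrete chemokines, and T-box factors keep up the program. Among the receptors, Ncr1 encodes NKp46, an activating receptor used to define NK cells, Klrb1c encodes NK1.1, Klrk1 encodes NKG2D, which binds stress-induced ligands, and Klre1 encodes a lectin-like NK receptor. Gzma and Gzmb encode granzymes, Prf1 perforin, and Nkg7 a protein of the granule membrane. Eomes is the T-box transcription factor of mature NK and memory CD8 T cells, and Ccl5 is a chemokine of activated cytotoxic cells.

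The genes lie apart in the genome except for a group of lectin-like receptors. On GRCm38 (mm10), Klrb1c (chr6:128778485-128789215, minus strand), Klre1 (chr6:129577905-129585827, plus strand) and Klrk1 (chr6:129610323-129623864, minus strand) sit on chromosome 6. Ncr1 (chr7:4337724-4345164) and Nkg7 (chr7:43437073-43438249) are both on the plus strand of chromosome 7. Gzma lies at chr13:113093825-113100981, Gzmb at chr14:56258838-56262260 and Ccl5 at chr11:83525778-83530518, all on the minus strand. Prf1 lies at chr10:61297833-61304680 and Eomes at chr9:118478212-118486132, both on the plus strand. All 10 are annotated as protein-coding.

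Promoter sequence from RefSeq (GRCm38.p6, 250 bases before to 50 bases after each start, read on the strand of the gene) was matched for 9 of the 10 genes, all but Ccl5. The windows of Ncr1 (chr7:4337465-4337764, plus), Gzma (chr13:113100932-113101231, minus), Prf1 (chr10:61297586-61297885, plus) and Nkg7 (chr7:43436888-43437187, plus) are shown because Gzma, Prf1 and Nkg7 followed Ncr1 most closely across Ly6C-low libraries. Capitals mark matches to 3 motifs searched on both strands: a Runx motif (TGTGGT or ACCACA), a T-box motif (GTGTGA or TCACAC) and an Ets motif (GGAAGT or ACTTCC).
Ncr1: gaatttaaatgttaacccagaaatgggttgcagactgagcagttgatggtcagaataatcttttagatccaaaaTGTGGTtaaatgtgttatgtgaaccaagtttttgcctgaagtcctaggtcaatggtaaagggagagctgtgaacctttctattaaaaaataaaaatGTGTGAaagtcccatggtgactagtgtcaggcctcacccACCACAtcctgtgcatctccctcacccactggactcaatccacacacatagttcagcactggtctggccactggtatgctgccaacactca
Gzma: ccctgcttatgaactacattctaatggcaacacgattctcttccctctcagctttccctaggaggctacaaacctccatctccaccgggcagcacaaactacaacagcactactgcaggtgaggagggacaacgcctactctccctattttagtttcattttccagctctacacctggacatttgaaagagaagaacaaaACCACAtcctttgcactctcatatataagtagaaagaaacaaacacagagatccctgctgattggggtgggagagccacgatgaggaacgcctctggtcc
Prf1: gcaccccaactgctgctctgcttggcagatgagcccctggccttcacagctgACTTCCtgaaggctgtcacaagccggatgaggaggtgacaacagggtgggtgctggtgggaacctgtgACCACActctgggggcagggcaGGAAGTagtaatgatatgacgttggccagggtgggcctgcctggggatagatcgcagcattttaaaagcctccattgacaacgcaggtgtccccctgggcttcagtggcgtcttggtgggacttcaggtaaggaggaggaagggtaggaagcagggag
Nkg7: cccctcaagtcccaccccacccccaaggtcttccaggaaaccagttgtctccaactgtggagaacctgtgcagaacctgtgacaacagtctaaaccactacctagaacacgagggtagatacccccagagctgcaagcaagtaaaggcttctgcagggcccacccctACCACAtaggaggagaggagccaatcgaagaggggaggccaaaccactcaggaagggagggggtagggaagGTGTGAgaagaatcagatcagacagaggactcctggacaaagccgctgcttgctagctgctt
The Runx letters stood in 8 of the 9 windows, all but that of Eomes, and in 16.8% of the 32851 mouse promoter windows of the same length. T-box letters stood in 4 of the 9 (Ncr1, Klre1, Gzmb and Nkg7) and in 14.5% of all windows. Ets letters stood in 2 of the 9 (Klrb1c and Prf1) and in 23.8% of all windows. Counted from the start, the Runx letters began at -176 and -41 and the T-box letters at -80 in Ncr1. In Nkg7 they began at -83 and -12, in Gzma the Runx letters began at -50, and in Prf1 at -130 between Ets letters at -198 and -108. These matches are a description of the letters in the windows.

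**Figure D1:**
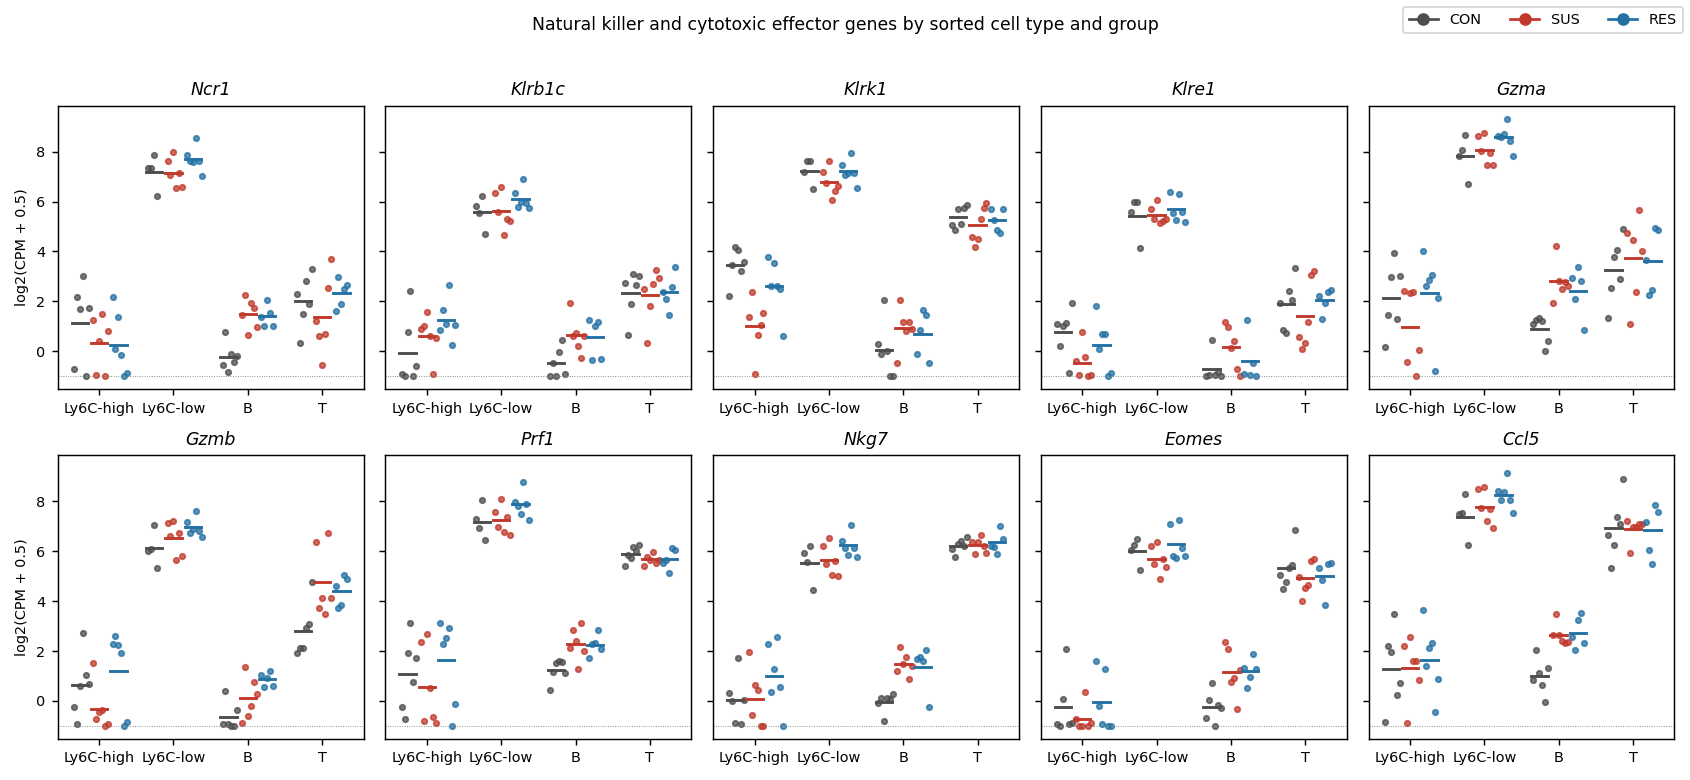
Level of each gene, as log2(CPM + 0.5), in every library (points) of the 4 sorted cell types in CON, SUS and RES mice, with the group mean as a horizontal line and 0 CPM as a dotted line. Over all libraries of a cell type the mean was highest in Ly6C-low monocytes for 9 genes, such as Prf1 (193 CPM, and 54.9 CPM in T cells), and highest in T cells for Nkg7 (78.4 CPM, and 62.2 CPM in Ly6C-low monocytes).

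The first question was where in the blood these transcripts lay. In control mice all 10 were abundant in the Ly6C-low monocyte libraries, intermediate in T cells for part of the set, and low in Ly6C-high monocytes and B cells. The 10 genes together took 572, 1201 (median) and up to 1854 CPM in the CON Ly6C-low libraries, 215 to 910 CPM in T cells, 8.03 to 77.0 CPM in Ly6C-high monocytes and 5.30 to 11.9 CPM in B cells. In bulk RNA, fewer cells of a type and less RNA per cell cannot be told apart.

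Ncr1 measured 161, 236, 74.2 and 163 CPM in the 4 CON Ly6C-low libraries, a mean of 158 ± 66.1 CPM (SD, n = 4). In CON T cells Ncr1 was 4.43 ± 3.09 CPM, in Ly6C-high monocytes 2.88 ± 2.81 CPM and in B cells 0.415 ± 0.403 CPM (n = 6 each). No CON library of another cell type exceeded 9.29 CPM, so the lowest Ly6C-low library stood above all of them. Gzma followed the same order, with 252.7 ± 126 CPM in Ly6C-low monocytes, 12.1 ± 9.85 in T cells, 5.74 ± 5.29 in Ly6C-high monocytes and 1.45 ± 0.628 in B cells. Nkg7 did not. It measured 50.6 ± 22.4 CPM in Ly6C-low monocytes and 75.7 ± 14.1 CPM in T cells, and the ranges of 21.1 to 73.3 and 54.7 to 95.4 CPM overlapped. Ccl5 was close to equal in the pair, at 189 ± 99.2 and 166.5 ± 161 CPM, with 1 T cell library at 483 CPM.

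Scaled to exon length, the order of the genes within a cell type differed. In CON Ly6C-low monocytes Gzma led with 251 ± 125 CPM per kilobase, then Ccl5 (197 ± 103), Ncr1 (103 ± 42.9), Prf1 (60.9 ± 29.5), Nkg7 (55.3 ± 24.5) and Gzmb (52.9 ± 27.7), and the other receptors and Eomes lay between 13.6 and 21.9 CPM per kilobase. Prf1, Nkg7 and Gzmb lay within 1 SD of each other. In CON T cells Ccl5 (173 ± 168) and Nkg7 (82.8 ± 15.4) led, Prf1 stood at 23.4 ± 4.84, and Ncr1, Klrb1c and Klre1 lay between 1.14 and 2.88 CPM per kilobase. Ccl5 and a granule gene thus led in both cell types, the latter being Gzma in Ly6C-low monocytes and Nkg7 in T cells. Ncr1 came next in Ly6C-low monocytes. In T cells the NK receptors had the lowest means, with Klrk1 at 5.98 ± 1.71 just below Gzmb at 6.15 ± 6.33.

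These differences were tested with edgeR's quasi-likelihood test across 24248 genes in 1 fit of 12 group means, and calls needed a Benjamini-Hochberg (BH) adjusted p below 0.05 together with a log2 fold change beyond 1 in either direction. Between CON Ly6C-high and Ly6C-low monocytes all 10 were called, each lower in Ly6C-high, where 10.6% of all genes were called. The log2 fold changes ran from -6.18 (Eomes, SE 0.94) to -3.46 (Klrk1, SE 0.63), with Ncr1 at -5.45 (SE 0.88). Ly6C-low monocytes also exceeded B cells for all 10 genes (28.9% of all genes called), by log2 fold changes of 5.92 (Prf1) to 8.13 (Gzmb). Against T cells, 6 of the 10 were called higher in Ly6C-low monocytes (27.1% of all genes called). These were the 4 receptors and both granzymes: Ncr1 at 4.98 (SE 0.86), Gzma at 4.2 (SE 0.82), Klre1 at 3.40 (SE 0.96), Klrb1c at 3.06 (SE 0.81), Gzmb at 2.92 (SE 0.85) and Klrk1 at 1.69 (SE 0.60, BH-adjusted p = 0.0236 in edgeR). Perforin, the granule protein, the T-box factor and the chemokine were not called: Prf1 at 1.19 (SE 0.67), Eomes at 0.33 (SE 0.80), Ccl5 at -0.01 (SE 0.67) and Nkg7 at -0.77 (SE 0.66). Their intervals are wide enough that the levels are not shown to be equal.

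T cells exceeded B cells for all 10 genes (20.0% of all genes called), most for Nkg7, at a log2 fold change of -7.00 (SE 0.78) for B against T. Ly6C-high monocytes were called lower than T cells for 7 of 10 (32.4% of all genes called). The exceptions were Ncr1 (-0.47, SE 0.74), Klre1 (-1.28, SE 0.87) and Gzma (-0.92, SE 0.71), whose levels in those neighbours did not differ beyond their spread. Ly6C-high monocytes were called higher than B cells for 5 of 10 (32.3% of all genes called), namely Ncr1, Klrk1, Klre1, Gzma and Gzmb. Without the third CON Ly6C-high library 2 of these calls remained, Klrk1 and Klre1. That library held 7.58 CPM of Ncr1 and 14.8 CPM of Gzma, the highest of the 6.

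**Figure D2:**
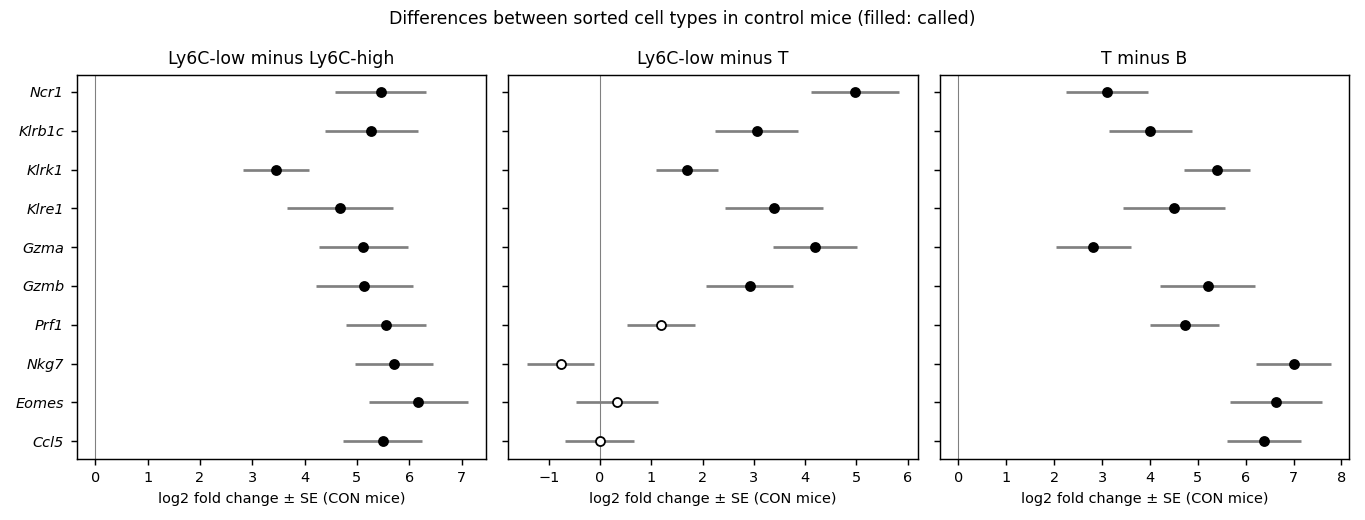
Difference of each gene between sorted cell types in CON mice, as the edgeR log2 fold change (points) with its SE (bars); filled points were called and open points were not. The 10 genes lay above 0 for Ly6C-low minus Ly6C-high monocytes and for T minus B cells, whereas Prf1, Nkg7, Eomes and Ccl5 were open for Ly6C-low minus T.

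Genes of the same pathway outside the set were counted from fixed lists. Among 23 other NK receptors and their adaptors, 17 were called lower in CON Ly6C-high than in Ly6C-low monocytes and 0 higher, with a median log2 fold change of -4.60 against -0.01 over all genes. Of 11 NK transcription factors 7 were lower, and of 5 effector cytokines 3 were lower. Granule and death effectors outside the set were mixed, with 4 of 15 lower, 3 higher and a median of -0.25. Against T cells, 14 of the 23 receptors and adaptors were called higher in Ly6C-low monocytes and 3 lower, whereas 2 of the 11 transcription factors were higher and 5 lower. More receptors than transcription factors were thus higher in Ly6C-low monocytes than in T cells, a count that was not tested. Among the effector cytokines, Tnf was the most abundant in CON Ly6C-low monocytes (66.9 CPM), followed by Ccl3 (8.48 CPM) and Ccl4 (8.35 CPM), chemokines for myeloid and T cells. In CON T cells Tnf stood at 4.79 CPM, Xcl1 at 0.628 CPM and Ccl4 at 0.439 CPM.

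The second question was whether the 10 genes rise together from library to library. In Ly6C-low monocytes they did. Pearson's r of each of the other 9 genes with Ncr1, on log2(CPM + 0.5) over 16 libraries, ran from 0.855 (Klre1) to 0.978 (Nkg7), with a median of 0.952. Spearman's rho ran from 0.812 to 0.968. Permutation p-values for r were 1e-05, the smallest that 100000 permutations can give, for 8 genes and 4e-05 for Klre1. In all, 36 relations were computed over the 4 cell types, and the p-values are unadjusted. With the 2 libraries farthest from the median of Ncr1 left out, r ran from 0.748 to 0.960. With each group's mean subtracted, r ran from 0.864 to 0.980, so the relation held within CON, SUS and RES. Over the 45 pairs of members the median rho was 0.894, and the lowest pair had 0.65. Over all pairs of the 19521 genes tested the median rho was 0.0.

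The spread of single libraries shows the same tie. From the lowest to the highest of the 16 libraries, Ncr1 went from 74.2 to 373.7 CPM, and the third CON library and the third RES library marked these ends. Those same libraries held 104 and 642 CPM of Gzma, 21.1 and 133.8 CPM of Nkg7, and 74.8 and 569.9 CPM of Ccl5, again the lowest and the highest of all 16. The log2 level of a gene varied with an SD of 0.53 to 0.72 between libraries. Its log2 ratio to Ncr1 varied far less, with an SD of 0.14 for Nkg7, 0.17 for Gzma, 0.18 for Prf1, and at most 0.31 (Klre1). The ratios between members therefore changed less across libraries than the levels did.

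In T cells, where Ncr1 was scarce (mean 4.27 CPM over 17 libraries), fewer genes followed it. The members were still positively related among themselves, with 44 of 45 pairs positive and a median rho of 0.512, or 0.566 with group means subtracted. Pearson's r with Ncr1 had a median of 0.445 and was past an unadjusted p of 0.05 for 4 of 9 genes. These were Klre1 (r = 0.837, rho = 0.850, permutation p = 5e-05), Eomes (r = 0.672, rho = 0.782, permutation p = 0.0029), Klrb1c (r = 0.648, rho = 0.706, permutation p = 0.0046) and Klrk1 (r = 0.619, rho = 0.642, permutation p = 0.00799, and r = 0.466 without 2 libraries). The granule genes were not among them, at r = 0.287 for Gzma, 0.191 for Gzmb, 0.189 for Prf1 and 0.151 for Nkg7. By r with Ncr1 beside 14134 other genes, Klre1 ranked 3, Eomes 95, Klrb1c 134 and Klrk1 211. For most of these, many other genes thus followed Ncr1 as closely. The share of all genes past an unadjusted p of 0.05 with Ncr1 was not computed in any cell type. Over all pairs of genes tested in T cells the median rho was 0.0. The difference in r between T cells and Ly6C-low monocytes was not tested.

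**Figure D3:**
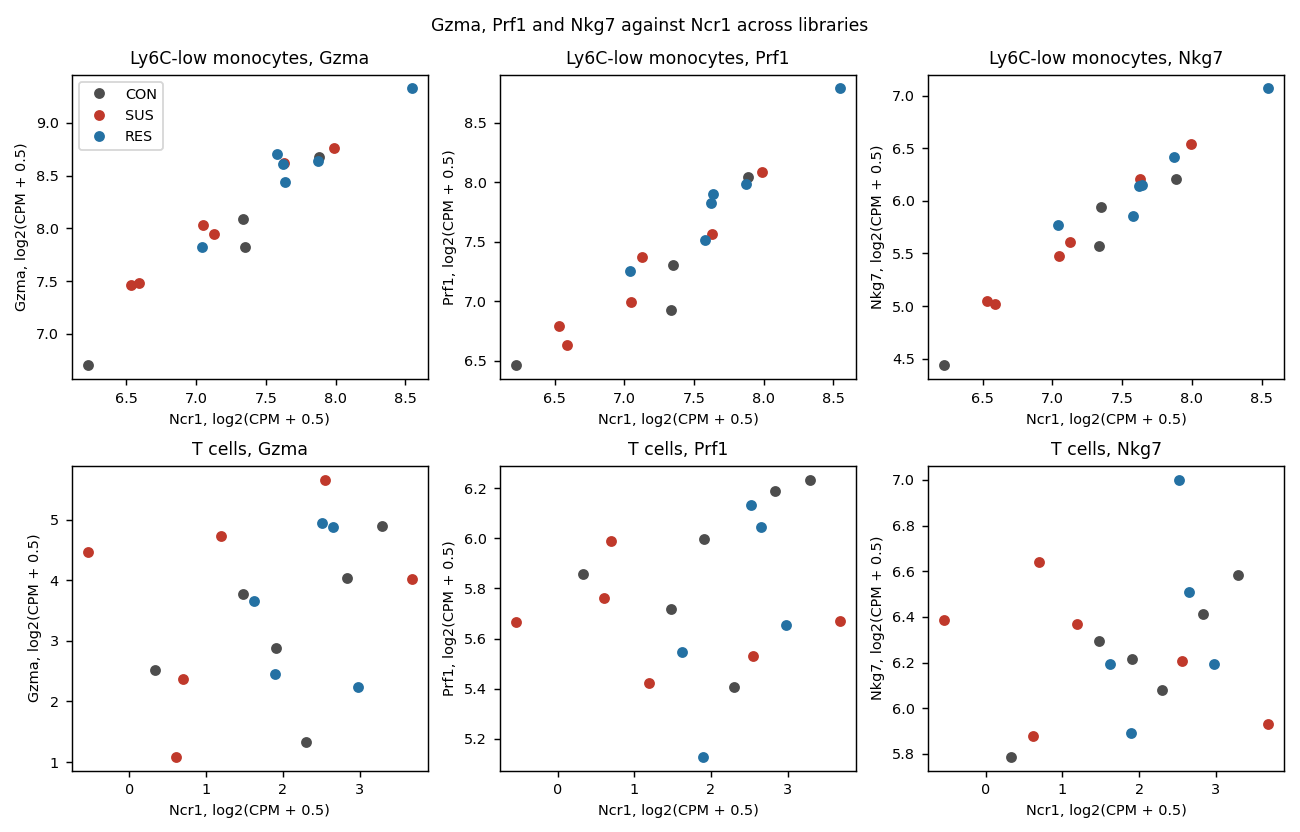
Gzma, Prf1 and Nkg7 (y axes) against Ncr1 (x axes), as log2(CPM + 0.5), with 1 point for each Ly6C-low monocyte library (top, 16 libraries) or T cell library (bottom, 17 libraries) and colours for CON, SUS and RES. The points fell along a line in Ly6C-low monocytes (r of 0.966, 0.956 and 0.978) and were scattered in T cells (r of 0.287, 0.189 and 0.151).

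The levels were low in the other cell types, where counting noise is larger. In Ly6C-high monocytes (18 libraries) 5 of 9 genes were past an unadjusted p of 0.05, led by Ccl5 (r = 0.725, rho = 0.628, permutation p = 8e-04, and r = 0.646 without 2 libraries) and Gzma (r = 0.706, rho = 0.715, permutation p = 0.00145, and r = 0.673 without 2 libraries). In B cells (17 libraries) 7 of 9 were, led by Ccl5 (r = 0.880, rho = 0.792, permutation p = 1e-05, and r = 0.874 without 2 libraries). With the group means subtracted, the median r in B cells went from 0.665 to 0.156 and the median rho of the 45 pairs from 0.571 to 0.215. In B cells the shared movement thus lay largely between CON and the stressed groups. In Ly6C-high monocytes the same step moved the median rho from 0.551 to 0.577. Over all pairs of genes tested the median rho was 0.003 in Ly6C-high monocytes and 0.004 in B cells.

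Other genes followed Ncr1 as well, and their likeness is given as a description. The list over all 68 libraries spans the sorted cell types, so its r values include differences in level between cell types. The lists within Ly6C-low monocytes and within T cells each stay inside a single cell type. Depth differed between libraries in every list. Over all 68 libraries the closest genes outside the set were Klra8 (r = 0.950), Klra14-ps, Styk1, Klrb1b, Klra9, Slc12a2, Adrb1, Cma1, Klrc2 and Spry4 (r = 0.927). Of these 10, Klra8, Klra9, Klrb1b and Klrc2 encode lectin-like NK receptors and Klra14-ps is a pseudogene of that family. Reads from similar copies in that family could have been split between them, so their values are uncertain. Within Ly6C-low monocytes the closest genes included Il2rb (r = 0.971), the receptor chain for interleukin-2 and interleukin-15, then Samd3, Cd2, Ms4a4b, Gimap4, Sh2d2a, Ptpn4, Osbpl3 and Sept1 (r = 0.947). Within T cells they were Nfkbid (r = 0.880), Nptn, Ptpn4, Psen2, Gm45148, Trdc, Gcfc2, Ahnak, Itgb1 and Ppp4r3a (r = 0.763). Trdc encodes the constant region of the delta chain of the gamma delta T cell receptor. Ptpn4 was the one gene on both of the last lists.

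Markers of other cells were read beside the relation in Ly6C-low monocytes, among 68 relations of lists with Ncr1 whose p-values are unadjusted. The sum of 10 T cell markers ran from 44.5 to 188 CPM and moved with Ncr1 (r = 0.942, rho = 0.974, permutation p = 1e-05). Of the 10, 6 had a mean of at least 1 CPM in CON, among them Lck (42.8 CPM), Cd247 (18.4 CPM) and Trbc1 (12.4 CPM). Cd3e (0.144 CPM) and Cd3g (0.0981 CPM), which define T cells, were near 0, and the other markers are not given here. Cd8a (0.147 CPM), a CD8 T cell marker outside the 10, was near 0 too. The sum of 6 Ly6C-low monocyte markers did not follow Ncr1 (r = -0.24, rho = -0.41, permutation p = 0.379), and neither did that of 6 B cell markers (r = -0.44, rho = -0.42, permutation p = 0.0885). The sum of 2 CD8 T cell markers did not (r = -0.07, rho = 0.05, permutation p = 0.807). The sum of 6 gamma delta T cell markers, at 3.22 to 20.3 CPM, did (r = 0.841, rho = 0.803, permutation p = 3e-05). That sum was nearly all Trdc (7.08 CPM in CON), the 1 gene of the 6 with a mean of at least 1 CPM, and 2 of the 6 were at 0 in every CON library. The part of other cells in the levels of the 10 genes was not tested.

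The third question was whether stress changed the set. In Ly6C-low monocytes, where its levels were highest, no member passed the test in any of the 3 contrasts. The summed level was 572 to 1854 CPM in CON (median 1201), 763 to 2032 in SUS (median 1118) and 1083 to 2949 in RES (median 1573). Ncr1 measured 132, 253.8, 91.8, 197.6, 139 and 95.9 CPM in SUS and 197, 191, 373.7, 233.9, 199 and 131 CPM in RES. All 3 groups overlapped, and 1 RES library stood above all CON and SUS libraries. In SUS against CON edgeR called 0 members (0.0871% of all genes called) and DESeq2 called 0. At an unadjusted p under 0.05 there were 0 members (9.51% of all genes). The median log2 fold change was 0.06, from -0.43 (Klrk1, SE 0.33) to 0.40 (Gzmb, SE 0.37), beside a median of -0.01 over all genes. In RES against CON, 0 were called (0.0154% of all genes called, and 0 members by DESeq2), and 0 had an unadjusted p under 0.05 (9.67% of all genes). There 9 of 10 estimates were positive with a median of 0.57, from -0.03 (Klrk1, SE 0.33) to 0.79 (Ccl5, SE 0.44), and the lowest BH-adjusted p in edgeR was 0.561. In SUS against RES, 0 were called (0.0% of all genes called, and 0 members by DESeq2), and all 10 estimates were negative with a median of -0.48. Of these, 0 had an unadjusted p under 0.05 (3.79% of all genes). Because the members move together in these libraries, 10 estimates of 1 sign are not 10 separate observations.

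**Figure D4:**
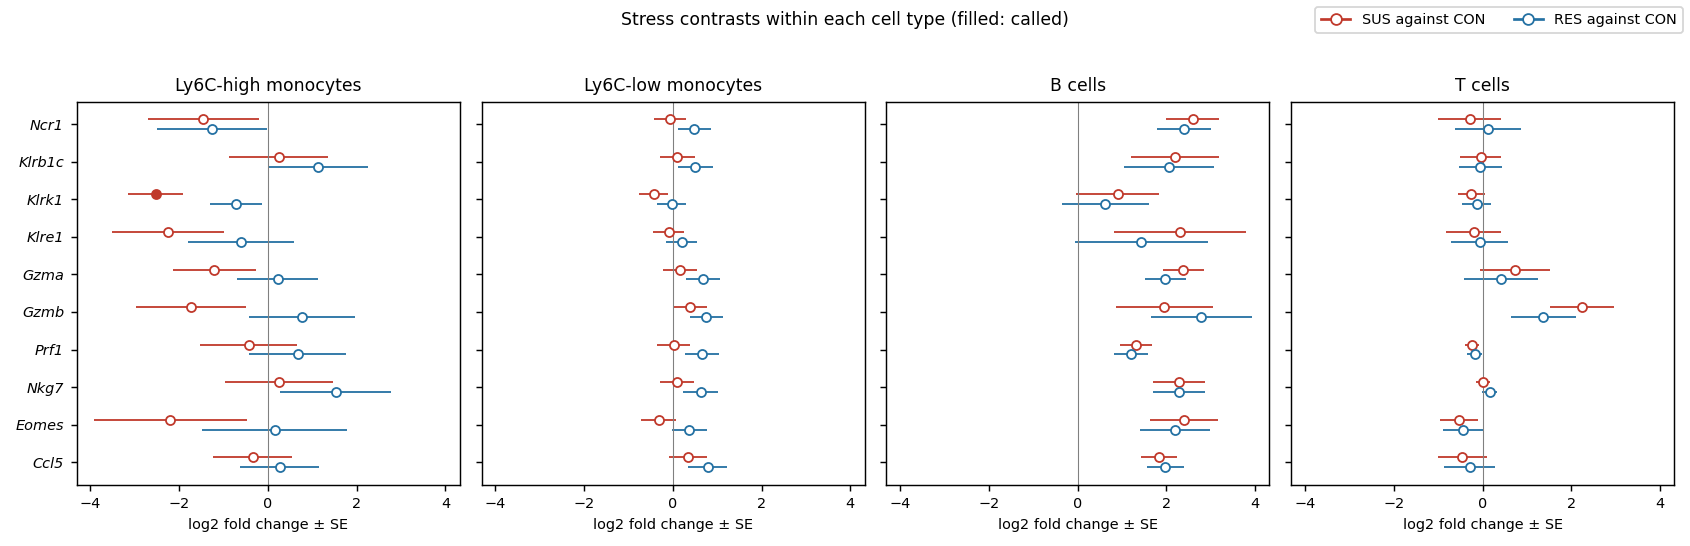
Change of each gene in SUS and in RES against CON within the 4 sorted cell types, as the edgeR log2 fold change (points) with its SE (bars); filled points were called. Klrk1 in Ly6C-high monocytes of SUS mice was the one filled point, all B cell estimates lay above 0, and the SUS and RES contrasts share their CON libraries.

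In Ly6C-high monocytes edgeR called Klrk1 lower in SUS mice, whereas the exact permutation test did not pass after adjustment. It measured 4.12, 11.1 (median) and up to 17.4 CPM in CON and 0.029, 1.83 (median) and up to 4.67 CPM in SUS, and 5 of the 6 SUS libraries lay below every CON library. Its mean went from 11.5 ± 4.94 to 1.98 ± 1.57 CPM (SD, n = 6 each), and edgeR estimated the change at -2.53 on the log2 scale (SE 0.62, BH-adjusted p = 0.00955 in edgeR). The exact permutation test gave an unadjusted p of 0.00433 and an adjusted p of 0.0649. Klrk1 was the 1 member called of 10 (3.45% of all genes called). In RES it stood at 6.96 ± 4.41 CPM, with 1.04 as the lowest and 13.2 as the highest library, between the other groups and overlapping both. Against CON this was a log2 fold change of -0.72 (SE 0.59, BH-adjusted p = 0.527 in edgeR), and in SUS against RES it was -1.81 (SE 0.61, unadjusted p = 0.00626 and BH-adjusted p = 0.999 in edgeR).

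The other members were scarce in Ly6C-high monocytes and did not pass. In SUS against CON 8 of the 10 estimates were negative with a median of -1.33, beside -0.05 over all genes. At an unadjusted p under 0.05 in edgeR there was 1 of the 10, Klrk1, beside 26.5% of all genes. The members were related across these libraries (median rho 0.551), so estimates of 1 sign are not separate observations. The SEs were large, as in Ncr1 (-1.46, SE 1.25), Klre1 (-2.25, SE 1.26) and Eomes (-2.20, SE 1.72). In RES against CON 0 members were called (0.997% of all genes called, and 0 members by DESeq2), with 7 positive and 3 negative estimates. Of these, 0 had an unadjusted p under 0.05, where 21.2% of all genes did. SUS against RES had 0 called (0.0% of all genes called, and 0 members by DESeq2) and 10 negative estimates. Of these, 1 had an unadjusted p under 0.05 (3.66% of all genes).

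Companion genes that passed in the same contrast went both ways. Slamf7, a receptor of the SLAM family on NK and other cells, went from a mean of 40.8 CPM in CON to 8.42 CPM in SUS, a log2 fold change of -2.28 (SE 0.30). Also lower in SUS were Ikzf3 (-2.61, SE 0.62), Cd160 (-2.07, SE 0.56), Ctsw (-1.98, SE 0.59) and Il12rb2 (-1.59, SE 0.45), which encode a lymphoid transcription factor, an NK receptor, a protease of cytotoxic cells and a chain of the interleukin-12 receptor. Higher in SUS were Il18rap (1.56, SE 0.41), a chain of the interleukin-18 receptor, and Nfil3 (1.23, SE 0.22), a transcription factor needed for NK development. Of the 15 receptors and adaptors tested 2 were called, both lower, beside 1 of 12 granule and death effectors and 2 of 8 transcription factors, and the cytokine and chemokine receptors, called in both directions, are not tallied here. None of the companion genes named here was called in RES against CON, where Slamf7 (-0.99, SE 0.29) and Nfil3 (0.92, SE 0.22) passed the p threshold and missed the fold threshold.

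Markers of other cells in these Ly6C-high libraries moved too. All 6 red cell markers were called higher in SUS, with a summed level of 332 to 1142 CPM in CON, 1049 to 8776 in SUS and 1044 to 4130 in RES. Of 6 Ly6C-high monocyte markers 2 were called higher, with sums of 6151 to 7475 CPM in CON and 8668 to 12034 in SUS. Of 6 platelet markers 1 was called higher. The T cell markers summed to 3.03 to 10.3 CPM in CON and 1.00 to 7.70 in SUS, with 0 of 4 tested called. Without mitochondrial, hemoglobin and ribosomal RNA genes in the library size, Klrk1 stayed the 1 member called. The part of the other markers in its change was not tested.

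In B cells all 10 genes were low, and all 10 estimates were positive in both stressed groups without passing the test across all genes. With only the 2 groups compared, 8 of the 10 passed the low-count filter for SUS against CON and 9 for RES against CON. A gene that passes only through its stressed libraries is favoured to have a positive estimate, so the count of 10 is not free of the filter. The summed level was 5.30 to 11.9 CPM in CON, 22.4 to 55.7 in SUS and 14.9 to 39.6 in RES, so neither stressed group overlapped CON. Gzma measured 0.497, 1.74 (median) and up to 2.01 CPM in CON (18 to 92 counts), 3.31, 6.01 and up to 18.2 CPM in SUS (90 to 597 counts), and 1.33, 6.59 and up to 9.78 CPM in RES. Every SUS library lay above every CON library, and 4 of the 5 RES libraries did. In SUS its log2 fold change was 2.38 (SE 0.46), with an unadjusted p of 2.4e-05 and a BH-adjusted p of 0.152 in edgeR. Nkg7 went from 0.493 ± 0.226 CPM in CON to 2.42 ± 0.939 in SUS and 2.43 ± 1.23 in RES, and Ccl5 from 1.70 ± 1.10 to 6.04 ± 2.34 and 6.68 ± 3.13. Ncr1 rested on 2 to 53 counts a library in CON and 40 to 140 in SUS, at 0.415 ± 0.403 and 2.54 ± 1.19 CPM.

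Across the set in B cells, SUS against CON had a median log2 fold change of 2.23, from 0.90 (Klrk1, SE 0.95) to 2.59 (Ncr1, SE 0.60), beside 0.00 over all genes. By edgeR 0 members were called (0.00568% of all genes called), 7 had an unadjusted p under 0.05 with a higher level (1.99% of all genes), and DESeq2 called 4, namely Ncr1, Gzma, Nkg7 and Ccl5, among 38 of 28826 genes. The groups did not overlap for 3 members, Gzma, Nkg7 and Ccl5 (0.0908% of all genes, counted for higher SUS levels). RES against CON had a median of 2.02, from 0.62 (Klrk1, SE 0.98) to 2.79 (Gzmb, SE 1.14). Here edgeR called 0 members (0.0% of all genes called), 7 had an unadjusted p under 0.05 with a higher level (1.8% of all genes), and DESeq2 called the same 4, among 15 of 28826 genes. The groups did not overlap for Ncr1, Gzmb and Prf1 (0.221% of all genes, counted for higher RES levels). SUS against RES had 0 called (0.0% of all genes called, and 0 members by DESeq2) and a median of 0.16. There 0 had an unadjusted p under 0.05 (1.36% of all genes). SUS and RES share the CON libraries, so the contrasts are not separate tests. The members were also related across the B cell libraries (median rho 0.571, or 0.215 with group means subtracted). Their estimates and counts are therefore not separate observations. With the library numbered 52 kept in RES, the estimates were larger, such as 5.14 for Ccl5 and 6.22 for Gzmb, and edgeR still called 0.

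Beside this, several other marker lists stood higher in the stressed B cell libraries. The 6 Ly6C-high monocyte markers were all positive in SUS (median log2 fold change 1.26) and in RES (0.48), with sums of 598 to 830 CPM in CON and 664 to 911 in SUS. The neutrophil markers summed to 0.119 to 2.74 CPM in CON, 0.480 to 9.02 in SUS and 1.25 to 2.70 in RES, and 2 of the 8 were at 0 in every CON library. Platelet markers were positive for 6 of 6 in SUS and 4 of 6 in RES, and red cell markers for 6 of 6 in both. Of 9 T cell markers tested 8 were positive in SUS with a median of 0.53 and 5 in RES with a median of 0.27. Both CD8 T cell markers were positive in SUS (median 1.65) and in RES (median 0.53), with sums of 0.201 to 1.68 CPM in CON and 1.01 to 3.05 CPM in SUS. The T cell marker Cd3e was at 0.166 CPM in CON and 0.614 CPM in SUS. B cell markers summed to 5024 to 5275 CPM in CON, 4251 to 5522 in SUS and 4436 to 5455 in RES. Of the companion lists, 16 of 19 NK receptors and adaptors were positive in SUS (median 1.30), and Il2rb went from 1.94 to 6.58 CPM, whereas granule and death effectors were split 6 to 6. The part of these other cells in the B cell values was not tested.

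**Figure D5:**
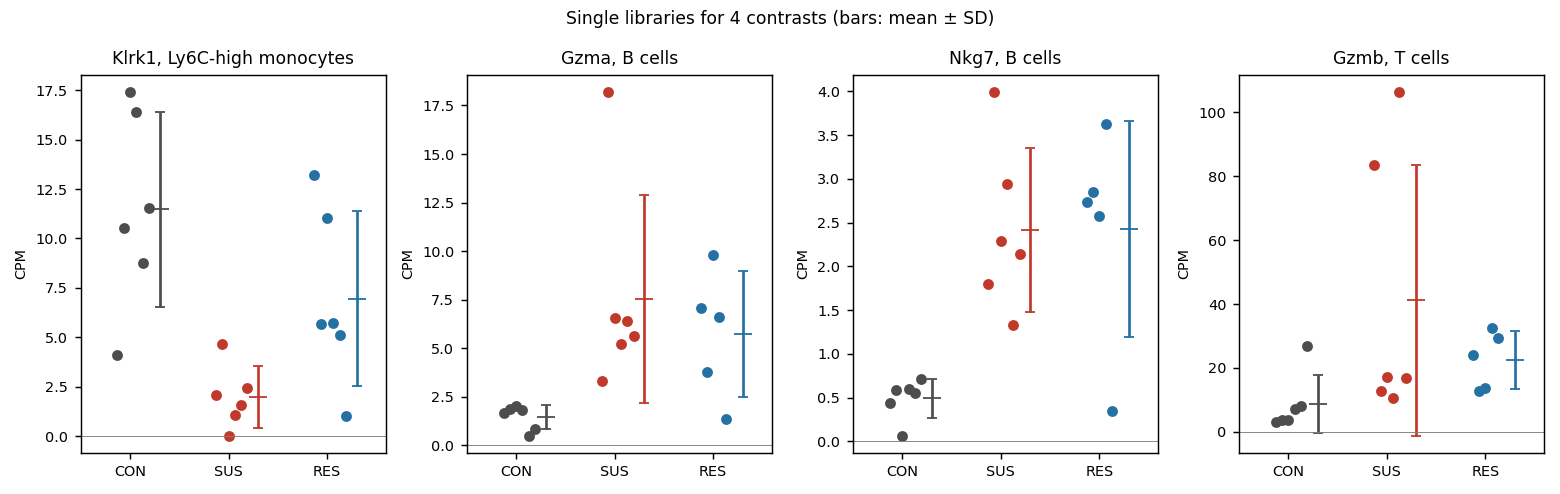
CPM in single libraries (points) with mean and SD (bars) for Klrk1 in Ly6C-high monocytes, Gzma and Nkg7 in B cells and Gzmb in T cells, by CON, SUS and RES. Of the 6 SUS points for Klrk1 5 lay below all CON points, every SUS point for Gzma and Nkg7 in B cells lay above all CON points, and 2 SUS points for Gzmb in T cells, at 83.4 and 106 CPM, stood far above the rest.

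In T cells no member passed the test, and Gzmb had the largest estimate. Gzmb measured 3.24 to 26.9 CPM in CON (median 5.48), 12.7, 17.2, 10.6, 83.4, 106 and 16.8 CPM in SUS, and 12.7 to 32.4 CPM in RES (median 24.0). The highest CON library overlapped both stressed groups, and the SUS mean of 41.2 ± 42.3 CPM rested on 2 libraries. Its log2 fold change was 2.24 in SUS (SE 0.72, unadjusted p = 0.00761 and BH-adjusted p = 0.576 in edgeR) and 1.37 in RES (SE 0.73). In SUS against CON 0 members were called (0.0265% of all genes called, and 0 members by DESeq2). At an unadjusted p under 0.05 there was 1, Gzmb (4.8% of all genes). The other 9 estimates ran from -0.53 (Eomes, SE 0.43) to 0.73 (Gzma, SE 0.79). Prf1 (-0.24, SE 0.15) and Nkg7 (0.01, SE 0.16) had the smallest errors. In RES against CON and in SUS against RES 0 were called (0.0% of all genes called and 0 members by DESeq2 in each). At an unadjusted p under 0.05 there were 0 members in either, beside 4.11% and 2.39% of all genes. All 6 gamma delta T cell markers were positive in SUS (median log2 fold change 0.69), with sums of 25.4 to 48.5 CPM in CON and 30.5 to 186 CPM in SUS. The 6 Ly6C-high monocyte markers (median 1.35) and the 6 red cell markers (median 0.83) were all positive as well. The part of these cells in the Gzmb values was not tested.

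Whether the change with stress differed between Ly6C-low monocytes and another cell type was tested as an interaction in the 12-group fit. For SUS against CON 0 members passed an adjusted p of 0.05 against Ly6C-high monocytes (0.363% of all genes), B cells (0.128%) or T cells (0.00412%), and DESeq2 also called 0. At an unadjusted p under 0.05 there were 1 member against Ly6C-high monocytes (14.2% of all genes), 4 against B cells (7.76%) and 0 against T cells (7.39%). For RES against CON 0 passed against Ly6C-high monocytes (0.099% of all genes), B cells (0.0701%) or T cells (0.00412%), 0 had an unadjusted p under 0.05, and DESeq2 called 0. Klrk1 had an interaction of 2.07 between Ly6C-low and Ly6C-high monocytes in SUS (SE 0.86, BH-adjusted p = 0.234 in edgeR). Its fall in Ly6C-high monocytes is therefore not shown to be particular to that cell type.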

How the data were processed

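The deposited table holds whole-number counts of reads per gene and library, which the authors made by aligning reads of total RNA libraries to mm10 with HISAT2 and counting them over Ensembl genes with htseq-count. The strand option is not given in the sources used here, so antisense and overlapping genes cannot be told apart. Columns were matched to samples by their labels, with 0 columns unused. Symbols came from GENCODE M21, which matched 52489 of 52636 genes. The members and gene lists were chosen with earlier results of these data known.

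In each cell type, genes were filtered with filterByExpr (minimum count 10), scaled by TMM and fitted with edgeR's quasi-likelihood model (robust) over CON, SUS and RES. A fit of 12 group means over 68 libraries gave cell type contrasts and interactions. The SE was derived from each estimate and its F statistic. Libraries 52 and 70 were left out, as their content went against their labels. Relations with Ncr1 were tested by 100000 permutations on log2(CPM + 0.5). Groups were also compared by an exact permutation test on the same scale, adjusted over members, cell types and contrasts. The scripts were tested on simulated data.

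Named genes were the 10 members, companion genes past both thresholds within a cell type, otherwise the 3 most abundant of a companion list, and the 10 genes most like Ncr1 (mean CPM at least 1). For companion lists the text gives counts and only part of these names, and some genes that met the rule are not reported here. Alternatives were DESeq2, its size factors, no filter, only the groups compared, p without the fold threshold, other pseudocounts, group means subtracted, and each library left out. Depth was 19769835 to 67038231 counts per library, and a gene at a few counts per library carries a wide counting error. Software was R 4.3.3, edgeR 4.0.16, limma 3.58.1, DESeq2 1.42.0, numpy 2.4.6, pandas 2.3.3 and scipy 1.17.1.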

Additional observations from a re-analysis of the deposited data

Results flagged for a closer look

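Over the 10 genes in 12 groups of libraries, 120 sets of values were tested, and in 9 of them 1 library stood far from the others, where chance gives about 1 in 20. Most were scarce transcripts. In B cells Klre1 was high in CON replicate 2 (0.872 CPM) and RES replicate 1 (1.90 CPM), whereas Nkg7 was low in CON replicate 2 (0.0671 CPM) and RES replicate 5 (0.349 CPM), and Ccl5 was high in SUS replicate 1 (10.7 CPM). In Ly6C-high monocytes Gzmb was high in SUS replicate 4 (2.41 CPM) and Eomes in CON replicate 3 (3.75 CPM) and SUS replicate 3 (0.783 CPM). In T cells Ccl5 stood low in SUS replicate 1, at 61.3 CPM beside a median of 134.8 CPM in the other SUS libraries.

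The library numbered 52, labelled RES B cells and kept out of the comparisons, held 753 CPM of the 10 genes together, beside a median of 26.0 CPM in the other RES B cell libraries.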

How the results depend on the processing

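Of the values that answer a comparison, 480 recomputed under an alternative were equal or near to the main value, and 6 moved further. Near meant a count of similar size, or a correlation shifted by less than its spread. Many of the counts were 0 under both settings. Of the values for single genes, 1652 were unchanged in call, 14 passed newly, 13 no longer passed and 1 reversed. In B cells DESeq2 called 4 members in SUS and 4 in RES against CON, where edgeR called 0, and edgeR without the low-count filter called 1 in SUS. With group means subtracted, the median r with Ncr1 in B cells was 0.156 and the median rho 0.215. Leaving out each library in turn gave 2 to 6 members called between Ly6C-high monocytes and B cells (2 without Ly6C-high CON replicate 3), 6 to 7 between Ly6C-high monocytes and T cells, 5 to 6 between Ly6C-low monocytes and T cells, and no other change in a count. For Klrb1c in Ly6C-high monocytes against B cells the log2 fold change went from -0.064 to 2.54, negative without Ly6C-high CON replicate 3. Klrk1 in Ly6C-low monocytes against T cells had an adjusted p in edgeR of 0.072 without Ly6C-low CON replicate 1 and 0.0685 without replicate 2. Over all genes DESeq2 called more than edgeR between SUS and CON, with 102 against 17 in Ly6C-low monocytes, 38 against 1 in B cells and 73 against 5 in T cells, and between RES and CON with 511 against 169 in Ly6C-high monocytes, 31 against 3 in Ly6C-low monocytes, 15 against 0 in B cells and 17 against 0 in T cells. Without the fold threshold edgeR called 2139 genes against 585 in Ly6C-high monocytes of SUS mice and 842 against 169 in those of RES mice. The causes were not tested. No paired analysis was possible because the labels tie no library to a mouse and the replicate numbers were given in accession order. Levels in B cells and Ly6C-high monocytes rest on few counts, which limits the precision there.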
